A study of Mus musculus with 4 samples.

Results

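Among 27278 mouse thymocytes profiled by droplet single-cell RNA sequencing, 1745 (6.40%) carried no T cell receptor (TCR) contig, that is, no assembled alpha or beta chain sequence in the TCR file of their genotype. They were chosen as barcodes with at least 2000 unique molecular identifiers (UMIs), at least 500 genes and at most 10% mitochondrial UMIs that did not occur among the barcodes of the filtered contigs. Cells with at least 2 H2-Aa and at least 5 Cd74 UMIs, 2 genes of MHC class II antigen presentation, were left out beforehand (18 cells of the Cgas KO library, 5 of them without a contig, and 14 of the WT library, 3 of them without a contig). The cells without a contig numbered 838 of 14363 in the Cgas KO library (5.83%, exact 95% interval 5.46 to 6.23) and 907 of 12915 in the WT library (7.02%, 6.59 to 7.48). They were set against cells with exactly 1 alpha chain (TRA) and 1 beta chain (TRB), called paired cells here, of which there were 9177 in the Cgas KO library and 8280 in the WT library.

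The study asks how cGAS, a sensor of cytosolic DNA, affects transcription in single CD4+CCR7+ thymocytes. The Cgas KO group was Cd4Cre Cgas fl/fl mice and the WT group Cd4Cre mice, so both carried the Cre transgene, driven by Cd4 regulatory sequences and active from the CD4 CD8 double-positive stage on. The thymus was the tissue of both, and sorting kept cells that bore CCR7, a chemokine receptor which thymocytes gain as they mature. Each genotype had 1 expression library and 1 TCR library, so the genotypes could not be tested against each other. Neither the labels nor the other sources used here say how old the mice were or how many were used. Intervals are exact, at 95%, and reflect counting error alone.

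A developing T cell builds its receptor genes by cutting and joining V, D and J segments, first at the beta and then at the alpha locus, with the RAG1 and RAG2 recombinase. A beta chain first pairs with the invariant pre-TCR alpha chain, and double-positive thymocytes then rearrange the alpha locus before selection turns recombination off. Cells of the gamma delta lineage join other loci and carry no alpha beta receptor. A contig can be assembled only where enough receptor RNA of a cell was captured and read in the TCR library, so a barcode without one need not be a cell without a receptor.

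The expression matrices held 87310091 UMIs for Cgas KO and 84763106 for WT, and the kept cells had median depths of 4507 UMIs in Cgas KO and 4941 UMIs in WT. No cell exceeded the mitochondrial limit. Of the barcodes in the contig files, 94.1% in Cgas KO and 97.0% in WT were kept cells. There were 275 barcodes kept as cells in both expression libraries. Among the cells without a contig, 6 of the Cgas KO library (0.716%) and 13 of the WT library (1.43%) had a barcode with contigs in the file of the other genotype, against 178 (1.94%) and 166 (2.005%) of the paired cells. Levels are given as counts per 1000000 UMIs (CPM) of the summed cells. RNA of the labelled markers was found in the summed cells without a contig. Cd4 stood at 273 CPM in Cgas KO and 260 CPM in WT cells without a contig, against 254 and 252 CPM in paired cells of those libraries. Ccr7 stood at 726 and 592 CPM without a contig, against 732 and 626 CPM in paired cells. Cd3e, a subunit of the receptor complex, stood at 1091 and 1099 CPM without a contig, against 1134 and 1170 CPM in paired cells. None of the 3 passed the test described below (adjusted p = 0.88 for Cd4, 0.27 for Ccr7 and 0.12 for Cd3e, edgeR's quasi-likelihood test).

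Contigs were missing at both ends of the depth range and seldom in between. In the Cgas KO library the share of cells without a contig was 10.1% at 2000 to under 2500 UMIs, 2.09% at 4000 to under 5000 UMIs, 13.8% at 8000 to under 10000 UMIs and 63.6% at 20000 UMIs and over. In the WT library the same 4 ranges gave 26.1%, 1.43%, 11.7% and 69.3%. The cells without a contig had median depths of 7201 UMIs in Cgas KO and 7429 UMIs in WT, against 4379 and 4838 UMIs in paired cells, which is 1.64 and 1.54 times as deep. Their spread was wide: the 5th and 95th percentiles were 2183 and 19129 UMIs in Cgas KO and 2169 and 21343 UMIs in WT. Cells of 8000 UMIs and over made up 45.6% of those without a contig in Cgas KO and 47.1% in WT, against 6.90% and 8.94% of paired cells. The depth limit cut through the lower rise: just outside it, at 1800 to under 2000 UMIs, 15.4% of Cgas KO and 26.5% of WT barcodes lacked a contig, and just inside it, at 2000 to under 2200 UMIs, 12.8% and 28.6% did.

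**Figure D1:**
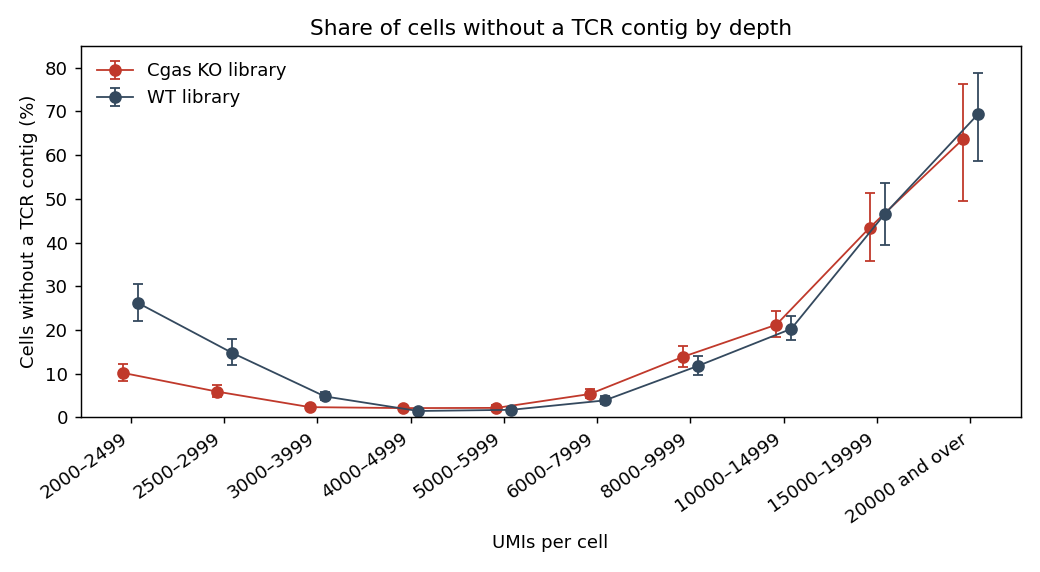
Percentage of cells without a TCR contig (y axis) in 10 ranges of UMIs per cell (x axis) for the Cgas KO library (red) and the WT library (dark blue); points are shares and bars exact 95% intervals. Both libraries fall to about 2% at 4000 to under 6000 UMIs (2.09% Cgas KO and 1.43% WT at 4000 to under 5000) and reach 63.6% and 69.3% at 20000 UMIs and over, and they stand apart at 2000 to under 2500 UMIs (10.1% Cgas KO, 26.1% WT).

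Because of this shape the cells were described in 3 depth bands, the highest of which was set after seeing the data. The cells without a contig numbered 250 in Cgas KO and 319 in WT at 2000 to under 4000 UMIs, 206 and 161 at 4000 to under 8000 UMIs, and 382 and 427 at 8000 UMIs and over. The share without a contig in Cgas KO was 0.498 times that in WT in the lowest band (4.59% against 9.21%, interval of the ratio 0.420 to 0.590), 1.34 times in the middle band (2.90% against 2.16%, 1.09 to 1.66) and 0.993 times in the highest band (21.2% against 21.3%, 0.863 to 1.14). Over all depths the ratio was 0.831 (0.755 to 0.914). It was 0.922 at a limit of 3000 UMIs and 1.07 at a limit of 5000 UMIs, so its direction depended on the depth limit.

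RNA of the alpha beta receptor was present in most cells without a contig. These levels come from the expression libraries and bear on the same transcripts as the contigs that define the cells, so they are given as a description with no test. Trac, the alpha constant region, stood at 189 CPM in Cgas KO and 187 CPM in WT cells without a contig, against 177 and 167 CPM in paired cells. Trbc2, a beta constant region, stood at 969 and 1074 CPM without a contig, against 989 and 1019 CPM in paired cells. All beta V segments together (Trbv) gave 2487 and 2498 CPM without a contig, against 2462 and 2451 CPM in paired cells. Summed over all depths these 3 measures of receptor RNA were thus close to the paired level in both libraries. Such sums weigh deep cells most. Those of 8000 UMIs and over gave 5067121 of 6946753 UMIs without a contig in Cgas KO and 6113061 of 7965576 in WT. At 2000 to under 4000 UMIs, Trac, Trbc1 and Trbc2 had a median log2 fold change of -0.77 against paired cells. It was 0.14 at 4000 to under 8000 UMIs and 0.21 at 8000 UMIs and over.

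After each cell was thinned at random to 2000 UMIs, a constant-region UMI was found in 84.8% of Cgas KO and 78.6% of WT cells without a contig (82.2 to 87.2 and 75.8 to 81.2), against 84.8% and 83.6% of paired cells. Without thinning the shares without a contig were 93.7% and 88.3%. The cells left out for H2-Aa and Cd74 gave 66.7% in Cgas KO (12 of 18, 40.99 to 86.7) and 57.1% in WT (8 of 14, 28.9 to 82.3). They had median depths of 5044.5 and 5816.5 UMIs. Only 5 of these 18 Cgas KO cells and 3 of these 14 WT cells lacked a contig. They are therefore no background without receptor chains. Their intervals are wide and in both libraries include the share of the cells without a contig. Free RNA, read from barcodes with 20 to under 200 UMIs, held Trbc2 at 938 CPM in Cgas KO and 986 CPM in WT. Only 9 Cgas KO and 18 WT cells without a contig had no alpha beta receptor UMI, and 8 and 17 of them lay in the lowest depth band; no paired cell was without one.

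The number of beta V segments per cell separated the deep cells without a contig from paired cells. A T cell with 1 productive beta chain expresses 1 such segment as a rule. In paired cells with at least 2 Trbv UMIs summed over all segments, the leading Trbv segment was compared with the cell's own contig. It was the same in 85.8% of Cgas KO cells (7736 of 9020) and 86.3% of WT cells (7069 of 8192). At 8000 UMIs and over, 3 or more segments with at least 2 UMIs each were found in 286 of 382 Cgas KO cells without a contig (74.9%, 70.2 to 79.1) and in 330 of 427 WT cells without a contig (77.3%, 73.0 to 81.2). Paired cells of that depth gave 8.06% in Cgas KO and 6.49% in WT, and cells with 2 or more TRB contigs gave 49.5% and 48.2%. The deep cells without a contig therefore held more segments than even the cells in which several beta chains had been assembled, and the intervals did not overlap. At 4000 to under 8000 UMIs the shares were 34.5% in Cgas KO and 37.9% in WT without a contig, against 3.63% and 3.74% in paired cells.

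Depth alone raises such a count, so the cells of 8000 UMIs and over were also thinned to 2000 UMIs each. Then 8.64% of Cgas KO and 7.73% of WT cells without a contig showed 3 or more segments, against 0.316% of Cgas KO paired cells and 0 of 740 WT paired cells, which allows a share of up to 0.497%. The gap remained, and cells with 2 or more TRB contigs gave 2.99% in Cgas KO and 2.36% in WT. For alpha V segments at 8000 UMIs and over, 49.0% of Cgas KO and 49.6% of WT cells without a contig had 3 or more before thinning, against 7.58% and 5.14% of paired cells. After thinning 3 of 382 Cgas KO and 3 of 427 WT cells without a contig did, against 1 of 633 and 0 of 740 paired cells, with overlapping intervals. The labels' protocols name a 3′ kit for the expression libraries, although V segments lie at the 5′ end of the transcript; which end was read was not settled here.

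**Figure D2:**
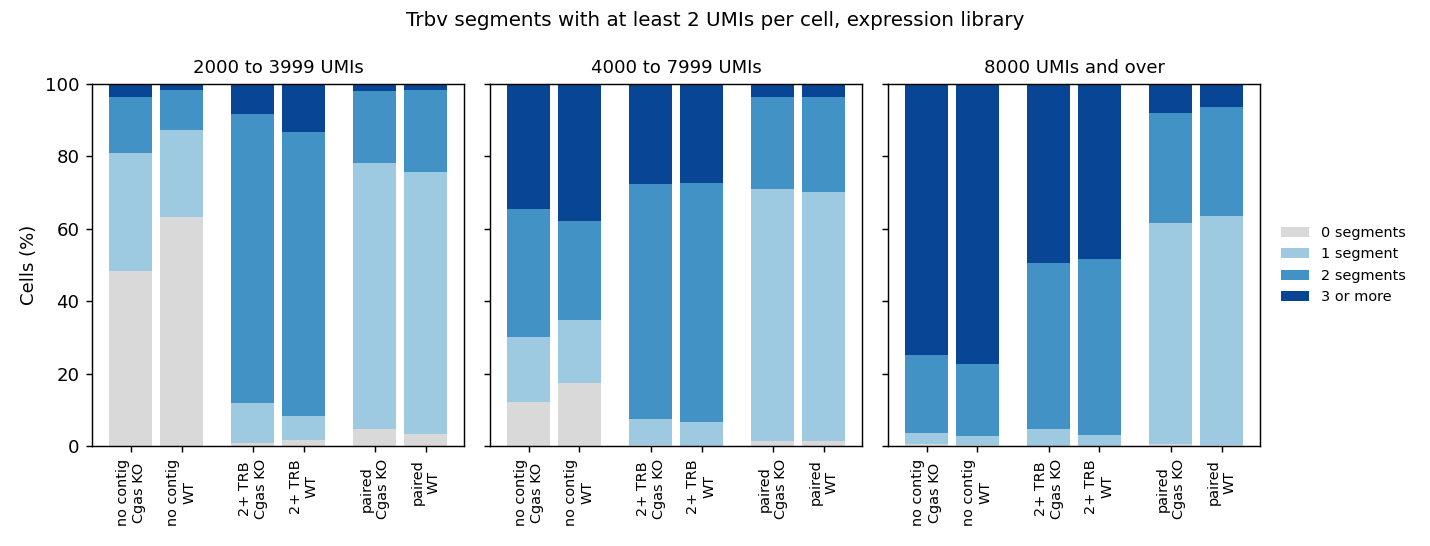
Share of cells (y axis, %) with 0, 1, 2 or 3 and more Trbv segments of at least 2 UMIs each, as stacked bars for cells without a contig, cells with 2 or more TRB contigs and paired cells of each library, in 3 panels by UMIs per cell. At 8000 UMIs and over 74.9% (Cgas KO) and 77.3% (WT) of cells without a contig have 3 or more segments, against 8.06% and 6.49% of paired cells, and at 2000 to under 4000 UMIs 48.4% and 63.3% of cells without a contig have none, against 4.80% and 3.50% of paired cells.

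The segments themselves were drawn from the whole beta locus. Of 19 segments with at least 1% of the Trbv UMIs of paired cells, the share in cells without a contig divided by that in paired cells ran from 0.784 (Trbv4) to 1.39 (Trbv20) in Cgas KO and from 0.710 (Trbv5) to 1.37 (Trbv15) in WT. No segment of this abundance was absent from the cells without a contig.

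At the low end of the depth range the cells without a contig included a population almost free of ribosomal protein mRNA. Transcripts of ribosomal proteins are short, cytoplasmic and abundant in every thymocyte. At 2000 to under 4000 UMIs, ribosomal protein genes gave under 5% of the UMIs in 78 of 250 Cgas KO cells without a contig (31.2%, 25.5 to 37.3) and in 196 of 319 WT cells without a contig (61.4%, 55.9 to 66.8). Among paired cells of this depth it was 15 of 3643 in Cgas KO (0.412%) and 38 of 2169 in WT (1.75%). The median ribosomal share in that band was 17.7% in Cgas KO and 1.94% in WT cells without a contig, against 21.1% and 20.8% in paired cells, and 11.4% and 14.6% in free RNA. The 2 populations were well separated, since in this band only 2 Cgas KO cells and 1 WT cell without a contig lay between 4% and 6%. At 8000 UMIs and over no cell without a contig was below 5% (0 of 382 and 0 of 427). Mitochondrial shares were alike, with medians of 1.07% in Cgas KO and 1.12% in WT without a contig, against 0.992% and 0.993% in paired cells.

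**Figure D3:**
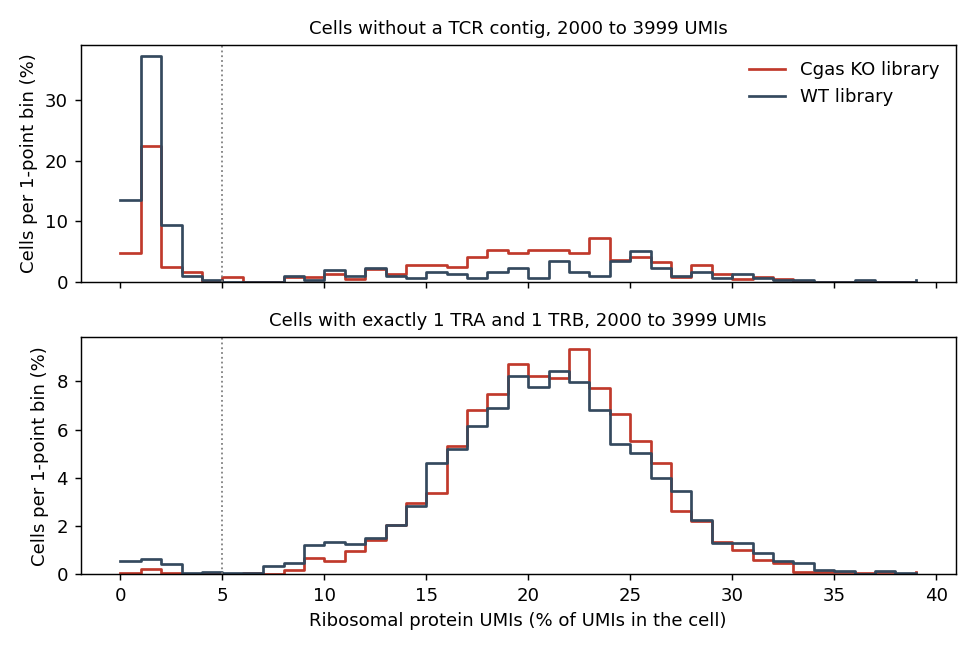
Histogram of ribosomal protein UMIs as a percentage of a cell's UMIs (x axis, 1-point bins; y axis, % of cells) at 2000 to under 4000 UMIs, for cells without a contig (top) and paired cells (bottom) in the Cgas KO (red) and WT (dark blue) libraries; the dotted line marks 5%. Cells without a contig form 2 peaks, with 31.2% of Cgas KO and 61.4% of WT cells below the line, whereas paired cells form 1 peak with 0.412% and 1.75% below it.

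These cells of low ribosomal share carried much RNA of long genes. As they were picked out after the data were seen, their values are a description. Over all depths there were 85 in Cgas KO (10.1% of the cells without a contig, median 2550 UMIs) and 208 in WT (22.9%, median 2647.5 UMIs). Dock2, an activator of the GTPase Rac that lymphocytes need to migrate, stood at 5345 CPM in Cgas KO and 6208 CPM in WT, against 476 and 465 CPM in paired cells. A list of 20 genes with long introns summed to 55416 and 55607 CPM, against 10706 and 10191 CPM in paired cells. Malat1, a nuclear noncoding RNA, stood at 16605 and 15388 CPM, against 7389 and 6214 CPM in paired cells. Receptor RNA was scarce: Trbc2 stood at 234 and 175 CPM, against 989 and 1019 CPM in paired cells, and Cd3e at 294 and 281 CPM, against 1134 and 1170 CPM. Ccr7 was still found, at 430 and 261 CPM, against 732 and 626 CPM in paired cells.

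The cells without a contig thus fell into parts of unequal make-up. Taken in order, 10.1% of them in Cgas KO and 22.9% in WT had a low ribosomal share. A further 43.7% and 43.8% had 3 or more Trbv segments (366 and 397 cells, median depths 11186 and 12317 UMIs). RNA of the delta and gamma chains was found in 0.477% and 0.551%. These were 4 and 5 cells with at least 2 UMIs of Trdc and of the gamma constant regions and V segments together. Of the rest, 22.8% and 17.6% had 2 Trbv segments, 12.6% and 8.27% had 1, and 10.3% and 6.84% had none. Paired cells without these features and with exactly 1 Trbv segment were 70.3% in Cgas KO and 68.7% in WT.

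Across all depths, genes of the double-positive stage were among those that differed between cells without a contig and paired cells. For each library and class the counts were added up, the 2 libraries served as replicates in a fit with library as a block, and a gene was called where the adjusted p from edgeR's quasi-likelihood test was under 0.05 and the CPM ratio reached 1.5 in the same direction in both libraries. Of 14449 genes tested 78 were higher (0.54%) and 10 lower (0.0692%); leaving out receptor gene segments, 70 and 10 remained. Of a list of 10 double-positive thymocyte genes 7 were called higher and 0 lower, with a median log2 fold change of 1.29 against -0.01 over all genes tested. With only 1 residual degree of freedom the number of calls depended on the tool: DESeq2's Wald test called 1 gene under the same rule (Ikzf2) and none of the 10, although the list's median was again 1.29. The fit without the library block called 14 genes higher and 0 lower. The result also rested on paired cells as the comparison: against cells with any contig 34 genes were called higher, and the calls of Rag1, Rag2, Ptcra, Arpp21, Ly6d and Endou ended, with log2 fold changes of 0.40, 0.58, 0.73, 0.53, 0.48 and 0.26.

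Rag1 and Rag2 encode the recombinase. Rag1 stood at 16.3 CPM in Cgas KO and 33.5 CPM in WT cells without a contig, against 6.40 and 7.56 CPM in paired cells, a log2 fold change of 1.75 (SE 0.16, adjusted p = 5.7e-05, edgeR). Both values without a contig lay above both paired values. Rag2 stood at 7.05 and 7.53 CPM, against 1.70 and 1.77 CPM in paired cells (2.01 on the log2 scale, SE 0.21). Ptcra, the pre-TCR alpha chain, was rare but higher, at 6.91 and 3.89 CPM against 0.635 and 0.727 CPM (2.90, SE 0.30). Dntt, the terminal transferase that adds nucleotides at V(D)J joints, stood at 59.0 and 63.9 CPM against 26.6 and 30.2 CPM. In each of these genes the cells without a contig were higher in both libraries. Arpp21, a cyclic AMP-regulated phosphoprotein, had the smallest adjusted p of the 12 genes with the largest rises, at 69.5 and 76.6 CPM against 23.4 and 21.9 CPM (1.63, SE 0.08, adjusted p = 3.3e-10, edgeR). The 3 list members without a call were Cd8a, Cd8b1 and Cd24a, and Cd8a stood at 149 and 184 CPM without a contig, against 146 and 160 CPM in paired cells.

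Other genes with the largest rises belonged to no single list. Gzma, the cytotoxic protease granzyme A, had the largest, at 18.7 CPM in Cgas KO and 5.90 CPM in WT without a contig, against 1.43 and 1.18 CPM in paired cells, but its 130 Cgas KO UMIs came from 19 cells and its 47 WT UMIs from 12. Ly6d, a membrane-anchored protein of the Ly6 family, stood at 55.9 CPM in Cgas KO and 47.7 CPM in WT without a contig, against 16.1 and 9.95 CPM in paired cells (1.96, SE 0.10, adjusted p = 8.1e-09, edgeR). Endou, an endoribonuclease, Smoc1, a secreted matrix protein, Rapgef3, a cyclic AMP-activated exchange factor, Scart2, a scavenger receptor, Dgkeos, named as an antisense gene of Dgke, and Ryr2, a calcium release channel, rose by 1.63 to 1.88 on the log2 scale. The sources used here do not say whether counting used strand, so Dgkeos is uncertain. Scart2 and Dgkeos did not hold their direction at every depth, with log2 fold changes of -0.52 for Scart2 at 8000 UMIs and over and -0.05 for Dgkeos at 2000 to under 4000 UMIs. Il2ra, the CD25 chain of the interleukin 2 receptor, stood at 25.5 and 26.4 CPM against 13.3 and 16.2 CPM, and Ikzf2, the transcription factor Helios, at 356 and 336 CPM against 237 and 224 CPM (0.53, SE 0.05, adjusted p = 1.4e-05, edgeR). These were the 2 of 9 Treg genes called, and the list median was -0.04. The Ikzf2 call over all depths ended when cells under 5% ribosomal protein UMIs were left out of both classes. Il2ra was then the only 1 of the 9 called, though in the lowest depth band Ikzf2 was called in that setting too. Foxp3, the lineage factor of regulatory T cells, stood at 10.1 and 16.7 CPM without a contig, against 8.24 and 11.99 CPM in paired cells, and was not called (adjusted p = 0.14, edgeR).

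Among the 10 genes called lower were Wwc1, Penk, S100a6, Ccdc102a, Xcl1 and Spaca7b, with log2 fold changes of -0.75 to -1.69. Xcl1, a chemokine of CD8 and innate-like T cells, stood at 8.35 CPM in Cgas KO and 6.03 CPM in WT without a contig, against 13.1 and 10.5 CPM in paired cells. S100a6, a calcium-binding protein, was lower here and at 8000 UMIs and over, but had a log2 fold change of 1.89 at 4000 to under 8000 UMIs. No gene of the CD3 and proximal TCR signalling list (17 tested, median -0.03) or of the mature CD4 list (9 tested, median -0.10) was called in either direction.

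**Figure D4:**
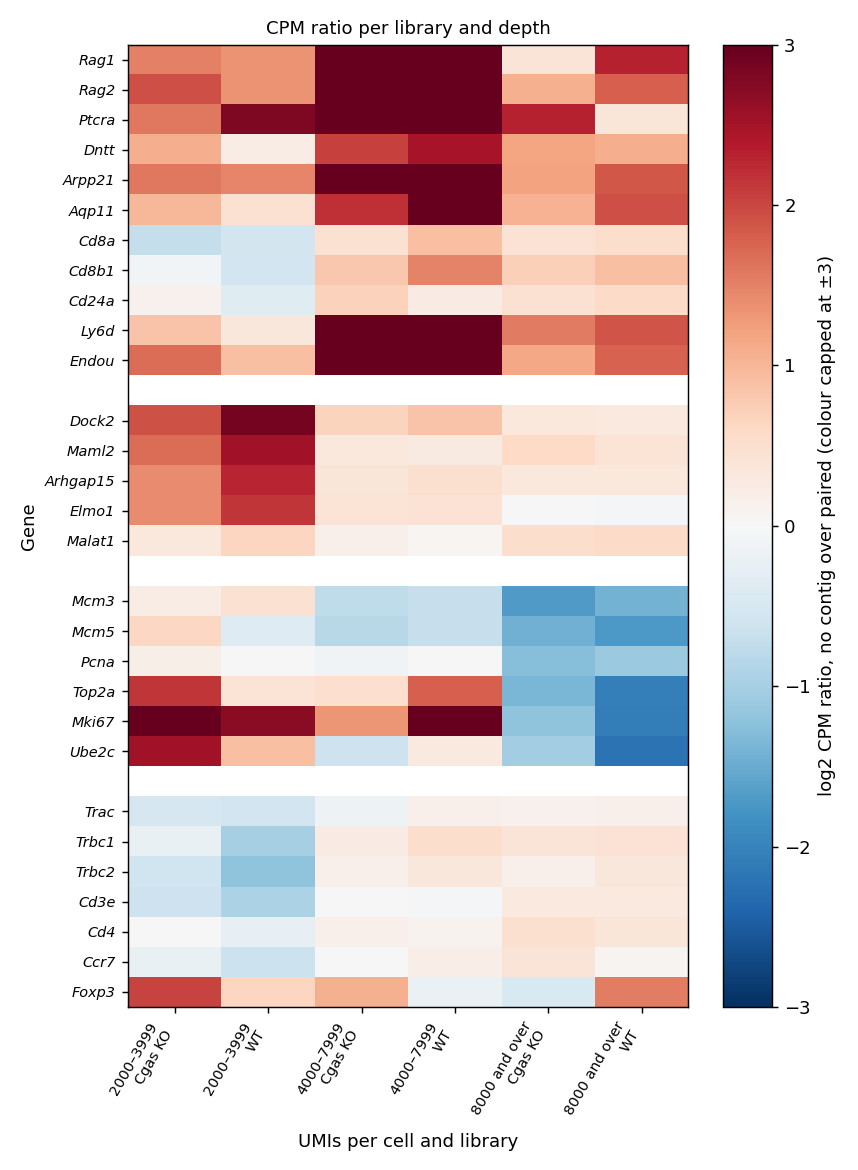
Log2 ratio of CPM in cells without a contig over paired cells (colour, capped at ±3) for 4 blocks of genes (rows: double-positive stage genes with Ly6d and Endou, genes of long introns with Malat1, cell cycle genes, and receptor, CD4 lineage and Foxp3 genes) in 3 depth bands and 2 libraries (columns). Double-positive genes are highest in the middle band (Rag1 4.39 on the log2 scale in the fit), long genes in the lowest band (Dock2 2.23), and most cell cycle genes are lower in the highest band (list median -1.65).

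Within the lowest band, 2000 to under 4000 UMIs, 1526 of 11240 genes tested were higher (13.6%) and 346 lower (3.08%) without a contig. The lower genes include receptor gene segments, without which 295 remained. Long genes were common among the rises. The genes called higher spanned a median of 102 kb in the RefSeq annotation of GRCm38.p6, the assembly of mm10, those called lower 7.49 kb and all genes tested 23.3 kb (94.2% to 96.3% of each set had a span), and 51.0% of the genes called higher exceeded 100 kb, against 11.8% of all tested. Dock2 stood at 1988 CPM in Cgas KO and 3907 CPM in WT without a contig, against 528 and 534 CPM in paired cells (2.23, SE 0.41, adjusted p = 3.5e-06, edgeR). Of the 20 genes with long introns 15 were called higher and 0 lower, with a median of 1.29 against -0.02 over all genes tested. They included Maml2, a Notch coactivator, at 1243 and 1788 CPM against 387 and 314 CPM, and Tox, a factor of CD4 lineage development, at 1910 and 2500 CPM against 738 and 663 CPM. In both libraries these genes were far above the paired level, and more so in WT, the library with more cells of low ribosomal share.

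Receptor complex genes moved unequally in this band. Cd3g and Cd3e fell: Cd3g stood at 764 and 599 CPM without a contig, against 1324 and 1364 CPM in paired cells (-1.16, SE 0.37, adjusted p = 0.011, edgeR), and Cd3e at 835 and 695 CPM, against 1275 and 1340 CPM (-0.95, SE 0.37, adjusted p = 0.041, edgeR). Themis, also one of the genes with long introns, and Trat1, 2 other genes of the same list with roles in TCR signalling, were called higher, and the other 13 of 17 were not called. Of 10 transcription factors that act on TCR gene enhancers, Runx1, Bcl11b, Tcf12 and Ikzf1 rose and none fell. Bcl2, a long gene for a survival protein, stood at 1032 and 1475 CPM, against 357 and 321 CPM. Kcnq1ot1 and Neat1, nuclear noncoding RNAs, rose by 1.59 and 1.15 on the log2 scale, whereas Malat1, at 11301 and 12251 CPM against 9100 and 7867 CPM, was not called (adjusted p = 0.73, edgeR).

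The 12 largest rises of the lowest band were Hdac9, Chn2, Diaph3, Mki67, Nt5e, Prlr, Mctp1, Vmn2r96, Myo1e, Cenpp, Dock4 and Ust, at 2.41 to 3.30 on the log2 scale. Mki67, a marker of dividing cells, stood at 87.9 CPM in Cgas KO and 31.2 CPM in WT without a contig, against 9.21 and 4.81 CPM in paired cells, and Ube2c was the only other of 10 cycling genes tested to be called. The 12 largest falls, N4bp3, Gstp2, Zbtb12, G0s2, Prss2, Lysmd1, Ift74, Tmem35b, Brca2, Zfp428, B4gat1 and Tmem176a, all rested on under 15 CPM in every sum, and several were at 0 in 1 library without a contig, so their fitted folds are not given. Foxp3 stood at 42.5 CPM in Cgas KO and 29.0 CPM in WT, against 10.3 and 18.7 CPM in paired cells (1.14, SE 0.29, adjusted p = 0.0010, edgeR), and Il2ra, Ikzf2 and Nrp1, a Treg surface receptor, rose too, 4 of 9 Treg genes in all, while the list median was -0.26.

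Cells of low ribosomal share were then removed from both classes, an alternative added after seeing the data. Of 11070 genes tested in this band 45 were called higher and 13 lower. None of the 20 genes with long introns was called (median 0.00, against -0.01 over all genes tested). The calls in the CD3 and proximal signalling list and among the enhancer factors ended as well, with 0 of 17 and 0 of 10 called. Calls were rare over all genes in this setting, so lists of this size without a call are near the share over all genes. Dock2 in the remaining 172 Cgas KO and 123 WT cells without a contig stood at 644 and 563 CPM, against 528 and 534 CPM in all paired cells of the band. Of the double-positive list 7 of 10 were called higher with a median of 1.40. Of 9 Treg genes 4 were called higher, Foxp3, Ikzf2, Il2ra and Nrp1, with a list median of 0.33. Foxp3 stood at 31.1 CPM in Cgas KO and 52.2 CPM in WT among these cells. These levels too rest on few Foxp3 UMIs, as the summed cells held 481564 UMIs of all genes in Cgas KO and 364147 in WT. Among the cells of low ribosomal share Foxp3 rested on 14 UMIs in 9 Cgas KO cells and 7 UMIs in 4 WT cells. With those cells included, the Foxp3 level of the band given above was higher in Cgas KO and lower in WT.

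In the middle band, 4000 to under 8000 UMIs, where fewest contigs were missing, 171 of 13361 genes were higher (1.28%) and 14 lower (0.105%), and the double-positive genes stood out further. Of the 10 on the list 8 were called higher, with a median of 2.95 against -0.01 over all genes tested. Rag1 stood at 31.7 CPM in Cgas KO and 82.6 CPM in WT without a contig, against 2.28 and 2.42 CPM in paired cells (4.39, SE 0.33, adjusted p = 1.0e-07, edgeR). At least 2 Rag1 UMIs were found in 6.31% of Cgas KO and 11.8% of WT cells without a contig, against 0.143% and 0.223% of paired cells and 5.37% and 8.41% of cells with 2 or more TRB contigs in the same band. The recombinase RNA was thus found in a minority of the cells, and at similar shares in cells with several beta chains. Free RNA held Rag1 at 40.7 CPM in Cgas KO and 45.4 CPM in WT.

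Ly6d in this band stood at 99.4 CPM in Cgas KO and 128 CPM in WT, against 7.12 and 5.09 CPM in paired cells (4.11, SE 0.22). Arpp21 stood at 102 and 171 CPM, against 12.6 and 11.8 CPM. Cd8b1, the CD8 beta chain, stood at 225 and 390 CPM, against 130 and 140 CPM, a log2 fold change of 1.05 (SE 0.14, adjusted p = 0.0050, edgeR). Cd4 stood at 284 and 278 CPM, against 255 and 258 CPM, and was not called (adjusted p = 0.92, edgeR). Endou and Aqp11, an aquaporin, rose by 3.88 and 2.56 on the log2 scale. Igfbp4, an insulin-like growth factor binding protein found in mature CD4 thymocytes, fell to 218 CPM in Cgas KO and 219 CPM in WT without a contig, against 393 and 388 CPM in paired cells (-0.95, SE 0.07, adjusted p = 6.6e-08, edgeR). Mcm3 and Mcm5, parts of the replicative helicase, were among the 14 lower genes, at -0.84 and -0.87.

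Gamma delta and cytotoxic transcripts rested on few cells in this band. Of 6 gamma delta genes tested 5 were called higher (Trdc, Trgc1, Trgc2, Sox13 and Blk; median 3.67). Trdc, the delta constant region, stood at 15.9 CPM in Cgas KO and 31.4 CPM in WT, against 3.99 and 3.91 CPM in paired cells. Cells were counted with at least 2 UMIs of Trdc and at least 2 of the gamma constant regions and V segments together. They were 4 of 206 in Cgas KO (1.94%) and 4 of 161 in WT (2.48%), against 0 of 4901 and 1 of 5371 paired cells. Those without a contig had few beta V reads, with median Trbv totals of 1 UMI in Cgas KO and 0 UMIs in WT. Gzma stood at 56.8 and 37.6 CPM, against 0.658 and 0.415 CPM in paired cells (6.33, SE 0.40). It rested on 68 UMIs in 5 Cgas KO cells, 33 of them in 1 cell, and on 36 UMIs in 5 WT cells, 27 of them in 1 cell.

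At 8000 UMIs and over, where 3 in 4 cells without a contig held several beta V segments, 420 of 11867 genes were higher (3.54%) and 795 lower (6.7%). Genes of DNA replication were prominent among the falls. Of 12 cycling genes 7 were called lower and 0 higher, with a median of -1.65 against 0.01 over all genes tested. Rrm2, a subunit of ribonucleotide reductase, stood at 79.7 CPM in Cgas KO and 58.7 CPM in WT without a contig, against 287 and 270 CPM in paired cells (-2.07, SE 0.07, adjusted p = 1.1e-09, edgeR). Tyms, thymidylate synthase, stood at 68.5 and 61.3 CPM, against 242 and 198.8 CPM. Cdc6 and Mcm10, which load and start the replication machinery, Ccnf, cyclin F, and Kif14 fell by 2.12 to 2.29 on the log2 scale. In every one of these genes both libraries lay below both paired values. The fall is relative to paired cells of this depth. Over all depths 0 of the 12 cycling genes were called, with a median of 0.14. Their summed level without a contig was then 1.32 times the paired level in Cgas KO and 0.987 times in WT. The cycling-like cluster 12, described below, had median depths of 10632 UMIs in Cgas KO and 11995.5 UMIs in WT. How far dividing cells raise the deep paired level was not tested.

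Among genes with at least 100 UMIs, Zbtb16, S100a6 and Xcl1 had the largest falls of the same band. Zbtb16, the factor PLZF of innate-like lineages, stood at 1.18 CPM in Cgas KO and 0.982 CPM in WT without a contig, against 14.6 and 9.44 CPM in paired cells (-3.48, SE 0.31, adjusted p = 3.6e-07, edgeR). Xcl1 stood at 9.67 and 7.69 CPM, against 63.1 and 38.9 CPM, and S100a6 at 1.58 and 1.15 CPM, against 15.6 and 13.6 CPM. Of 4 genes of the innate-like list that could be tested, Zbtb16 alone was called, and the list median was 0.06. Cgas itself was lower, at 3.55 CPM in Cgas KO and 6.22 CPM in WT without a contig, against 10.3 and 15.4 CPM in paired cells (-1.44, SE 0.22, adjusted p = 7.5e-05, edgeR). Over all depths paired cells held Cgas at 3.18 and 4.63 CPM, so paired cells of this depth stood above paired cells as a whole. Of 7 cGAS-STING genes tested in this band, Ikbke and Samhd1 were called higher and Cgas alone lower.

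The rises at this depth mixed stages. Slfn5, an interferon-inducible gene, led them, at 64.7 CPM in Cgas KO and 75.9 CPM in WT, against 13.8 and 14.7 CPM in paired cells (2.26, SE 0.11, adjusted p = 3.2e-10, edgeR). Of the double-positive list 6 of 10 were called higher (median 1.25), among them Arpp21 at 51.7 and 43.8 CPM against 22.3 and 12.1 CPM. S1pr1, the receptor through which mature thymocytes leave the thymus, stood at 152 and 125 CPM against 69.3 and 61.5 CPM. Ccr9 and Sox4 of the semi-mature list, Nr4a1 and Nr4a3, which respond to TCR signals, and Bcl2l11 and Bbc3, which promote apoptosis, were called higher as well, by 0.64 to 0.90 on the log2 scale. Of the mature CD4 list S1pr1 was the 1 gene of 9 called, and of the semi-mature list 2 of 8 were. The 366 Cgas KO and 397 WT cells with 3 or more Trbv segments, taken over all depths, held Cd4 at 275 and 269 CPM, Cd8b1 at 177 and 217 CPM and Ccr7 at 706 and 595 CPM.

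When cells with 3 or more Trbv segments and cells of low ribosomal share were removed from both classes, another alternative added after seeing the data, 50 of 14428 genes were higher (0.347%) and 4 lower (0.0277%). The 4 lower genes were V segments, on which the choice of these cells itself bears, so nothing is read from them. Of the double-positive list 7 of 10 were called higher with a median of 1.67, against -0.01 over all genes tested. Rag1 stood at 23.5 CPM in Cgas KO and 43.9 CPM in WT, against 5.37 and 7.18 CPM in paired cells (2.36, SE 0.19, adjusted p = 6.0e-05, edgeR). Ly6d stood at 79.1 and 59.4 CPM, against 15.2 and 9.80 CPM. No gene with long introns and no cycling gene was called. Double-positive genes were thus higher than in paired cells also among the cells that showed neither feature; this setting was not run against cells with any contig.

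Marker lists of other cell types were summed in the same way. B cell markers in cells without a contig were 1.15 times the paired level in Cgas KO and 1.10 times in WT, with Ms4a1 and Igkc at 0 in both. Granulocyte markers were at 0.946 and 1.04 times, with S100a8 and S100a9 at 0, though Cpa3, a mast cell protease, was called higher (1.44 CPM in Cgas KO and 2.51 CPM in WT without a contig, against 0.159 and 0.114 CPM in paired cells). Erythroid markers were at 1.0 and 0.891 times, with Slc4a1 at 0, and macrophage markers at 0.917 and 0.993 times. Epithelial and stromal markers were at 1.10 and 1.29 times, with Krt8, Dcn and Pdgfra at 0. Plasmacytoid dendritic cell markers were at 1.27 and 1.34 times, where Ly6d was the only member called and Siglech was at 0. NK markers were at 4.07 and 1.80 times, where Gzma was the only member called and Ncr1 was at 0.

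Clustering both libraries together, without TCR segments among the genes used, gave 14 clusters that differed widely in the share of cells without a contig. Cluster 10, led by Dock2, St6galnac3, Maml2, Lncpint and St8sia6 and left unnamed, had the highest share in both libraries: 76 of 166 cells in Cgas KO (45.8%, 38.04 to 53.7) and 202 of 341 in WT (59.2%, 53.8 to 64.5). It held 9.07% of all Cgas KO and 22.3% of all WT cells without a contig, and its median ribosomal share was 1.87% and 1.59%. Cluster 5, led by Tubb2a, Tmem64, Vps37b, Sgms1 and Trim13 and also unnamed, had 15.4% in Cgas KO and 20.2% in WT, and 27.0% and 26.2% of its cells carried 2 or more TRB contigs. It held 19.5% and 14.7% of the cells without a contig.

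The clusters 13, 4 and 12, of immature or dividing cells, also had shares above those of their libraries. Not all dividing clusters did. Cluster 11, also cycling-like and led by Hells and Mcm3, had 5.71% in Cgas KO and 3.52% in WT. The library shares were 5.83% and 7.02%. Cluster 13, led by Ly6d, Anxa2, Dntt, Endou and Arpp21, had 16.7% in Cgas KO and 16.3% in WT, the double-positive-like cluster 4, led by Rag1 and Arpp21, 10.99% and 14.4%, and the cycling-like cluster 12, led by Ube2c and Top2a, 11.2% and 11.5%. The Treg-like cluster 6, led by Foxp3 and Il2ra, had 5.71% and 6.87%, near the library averages. The CD8-like cluster 0 had 3.25% and 3.49%, the mature CD4-like cluster 3 had 2.85% and 3.65%, and the semi-mature CD4-like cluster 9 had 2.47% and 1.73%. Names rest on rebuilt clusters and on marker lists, and doublets were not removed.

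**Figure D5:**
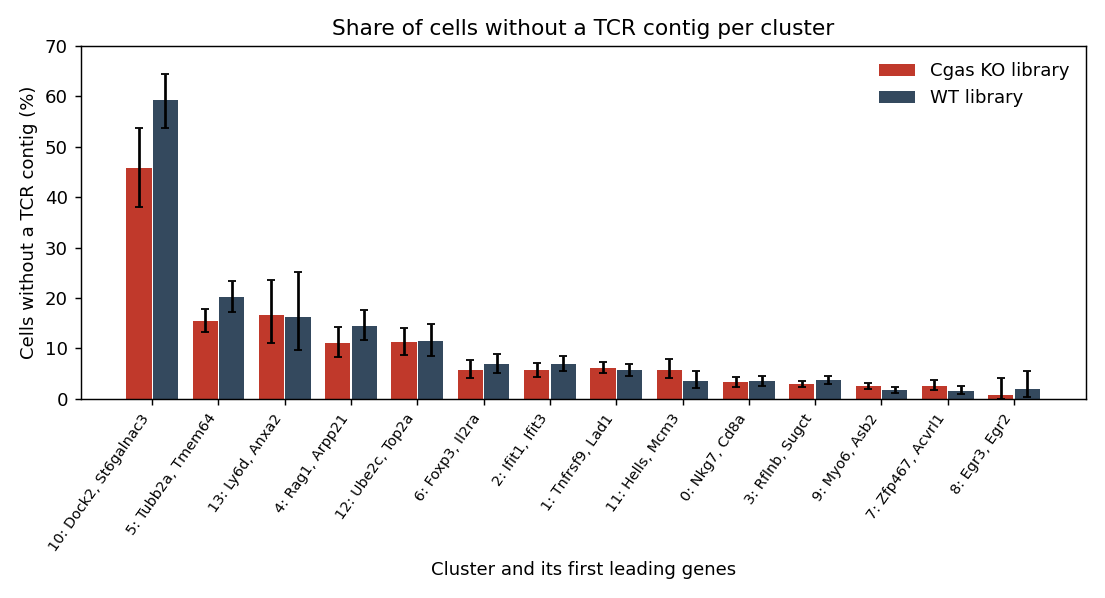
Percentage of cells without a TCR contig (bars; y axis) in 14 clusters (x axis, with 2 leading genes each), ordered by the mean of both libraries, for Cgas KO (red) and WT (dark blue); error bars are exact 95% intervals. The Dock2-led cluster 10 stands highest in both libraries (45.8% Cgas KO, 59.2% WT), and clusters of mature CD4-like and CD8-like cells stay under 4%.

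Between genotypes, the cells without a contig could be compared as levels only. Cgas stood at 2.88 CPM in Cgas KO (20 UMIs) and 5.52 CPM in WT (44 UMIs), a ratio of 0.521 (0.291 to 0.903), and in paired cells at 3.18 and 4.63 CPM. The sources used here do not name the floxed exons, so reads from undeleted parts of the gene may be counted, and these low values do not check the labels; free RNA held 2.62 CPM in Cgas KO and 5.71 CPM in WT. Genes were compared where the summed cells held 100 UMIs or more and 1 library reached 20 CPM. Of 6942 such genes, 65 stood in Cgas KO at 1.5 times the WT level or above (0.936%) and 47 at the inverse or below (0.677%). In paired cells 13 of 6716 genes were higher and 25 lower by the same measure, and 30 genes were shared by both sets. Foxp3 stood at 10.1 CPM in Cgas KO and 16.7 CPM in WT without a contig (ratio 0.604, 0.445 to 0.812), and at 8.24 and 11.99 CPM in paired cells. Sting1, which acts downstream of cGAS, stood at 59.5 and 63.6 CPM, and Ctcf, a chromatin architecture factor, at 190 and 168 CPM.

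Several of the widest differences were as wide in paired cells, and 5 of them lie close together on chromosome 1. Ifi213, a gene of the interferon-inducible p200 family, stood at 89.7 CPM in Cgas KO and 1.51 CPM in WT without a contig, a ratio of 59.5 (33.8 to 116), and the ratio in paired cells was 101. Ifi206, of the same family, stood at 78.7 and 6.90 CPM (ratio 11.4, and 16.8 in paired cells), Ifi214 at 23.0 and 48.2 CPM (0.478, and 0.525 in paired cells), and Aim2, a DNA sensor of that family, at 11.9 and 53.2 CPM (0.224, and 0.202 in paired cells). In mm10 these 4 genes lie on chromosome 1 between 173349547 (start of Aim2) and 173599348 (end of Ifi213). Reads of such closely related genes may have been split between them in counting. Slamf6, a lymphocyte surface receptor on chromosome 1 from 171917458 to 171948958, stood at 67.5 and 27.0 CPM (2.50, and 2.59 in paired cells). Slc15a2, a peptide transporter, stood at 4.89 and 40.05 CPM (0.122, and 0.134 in paired cells).

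Other genotype differences were wider without a contig than in paired cells, a comparison that was not tested. Of 12 cycling genes 6 (Ube2c, Mki67, Cdk1, Top2a, Birc5 and Ccnb1) passed 1.5-fold toward Cgas KO without a contig, with a median log2 ratio of 0.54 against -0.01 over all genes, and 0 of the same list were in paired cells (median 0.09). Ube2c, a ubiquitin-conjugating enzyme of mitosis, stood at 162 CPM in Cgas KO and 64.3 CPM in WT without a contig, and at 82.5 and 74.2 CPM in paired cells. The cycling-like cluster 12 held 7.64% of Cgas KO and 5.29% of WT cells without a contig. Rag1 had a ratio of 0.485 (16.3 CPM in Cgas KO, 33.5 CPM in WT), and of 0.846 in paired cells. St8sia6, a sialyltransferase and a leading gene of cluster 10, stood at 28.9 and 67.0 CPM (0.432), and the ratio in paired cells was 0.785. Ccl5, a chemokine of cytotoxic and innate-like cells, stood at 1.44 and 42.6 CPM (0.0338), and its 339 WT UMIs came from 17 cells, 105 of them from 1 cell; in paired cells the ratio was 1.61.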

How the data were processed

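Gene expression was read from UMI count matrices (genes by barcode, not normalized) that the authors deposited, and TCR chains from their deposited contig tables, which list V and J segments and UMI counts for each contig. Per the submitters' processing notes, Cell Ranger 7.0 and Seurat 5.1.0 were used with mm10, whereas the file headers name Cell Ranger 8.0.1; this conflict was not resolved. Samples were grouped by their titles. The members and the gene lists were chosen with earlier results of these data known.

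Barcodes were joined within a genotype. Counts were summed per library and class (4 sums) and fitted with edgeR 4.0.16 in R 4.3.3 (TMM, filterByExpr, quasi-likelihood test, library as a block because both classes of a library come from 1 sorted sample, 1 residual degree of freedom, Benjamini-Hochberg over all genes tested). The 2 replicates are libraries of different genotype. A call needed an adjusted p under 0.05 and a CPM ratio of at least 1.5 the same way in both libraries. Named genes were the 12 highest and 12 lowest fold changes among called genes with at least 100 UMIs over the sums, 13 genes named always, up to 4 members of each of 29 lists, and 8 genes at each end between genotypes, leaving out TCR segments and unnamed gene models; Cd3g, Trat1 and single values beside these were chosen after they were seen. Shares carry exact Clopper-Pearson intervals and ratios exact conditional intervals at 95%. Clusters were made with scanpy 1.11.5 (30 components, 15 neighbours, resolution 1). No doublet caller was run. Alternatives included DESeq2 1.42.0, other depth limits, thinning to 2000 UMIs and a fit without the block. The test was also run on simulated counts in which the 2 libraries did not differ in gene levels. That run does not check the calls for libraries of different genotype. A few genes of the lists are not reported here by name.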

Additional observations from a re-analysis of the deposited data

Results flagged for a closer look

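In 3 lists the Cgas KO and WT libraries lay on opposite sides of 1 with both 95% intervals excluding 1, and in 1 share 2 depth bands did; lists on opposite sides with an interval that included 1 are not counted, and none of these differences was tested, since there is 1 library per genotype. Summed markers of innate-like T cells in cells without a contig were 0.881 times the paired level in Cgas KO (46.9 against 53.3 CPM) and 1.63 times in WT (102 against 62.7 CPM), where Ccl5 gave 339 of 813 UMIs of the list without a contig. Genes of strong TCR signals were at 1.05 times in Cgas KO and 0.964 times in WT, and nuclear long noncoding RNAs at 0.948 times in Cgas KO and 1.01 times in WT. The share of cells without a contig in Cgas KO was 0.498 times that in WT at 2000 to under 4000 UMIs and 1.34 times at 4000 to under 8000 UMIs, and neither interval included 1. In the lower of these bands 31.2% of Cgas KO and 61.4% of WT cells without a contig had a low ribosomal share; the part this plays in the ratio was not tested beyond the value without such cells over all depths, 0.954.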

How the results depend on the processing

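Alternatives by ribosomal share, Trbv number and the highest depth band were chosen after seeing the data, and the cause of each change was not tested. The share without a contig was 5.92% in WT (Cgas KO over WT 0.922) at 3000 UMIs, 9.19% in Cgas KO and 8.62% in WT (1.07) at 5000 UMIs, and 5.29% and 5.54% (0.954) among cells of at least 5% ribosomal UMIs. Median depth over that of paired cells was 1.90 in Cgas KO and 1.93 in WT at 3000 UMIs. The share with a constant-region UMI was 93.7% in Cgas KO and 88.3% in WT without thinning, 94.9% and 91.5% thinned to 3000 UMIs, and 91.0% and 88.6% at 5000 UMIs. The share of deep cells with 3 or more Trbv segments was 89.0% and 89.9% at 1 UMI per segment, 64.4% and 65.6% at 3 UMIs, and 8.64% and 7.73% after thinning.

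The 78 higher and 10 lower genes became 49 and 3 with DESeq2's size factors, 1 and 0 with DESeq2's Wald test (186 at an adjusted p under 0.05 and 833 at an unadjusted p under 0.05, before the fold rule), 34 higher against cells with any contig, 429 and 19 after thinning, 485 and 33 in cells with fewer than 3 Trbv segments, 50 and 4 in those that also had at least 5% ribosomal UMIs, and 5 lower at 5% alone. By band they were 1526 and 346, 171 higher, and 420 and 795; the lowest band at 5% ribosomal UMIs gave 45 higher. Without the replicate block there were 14 higher and 0 lower genes (edgeR; 1994 at an unadjusted p under 0.05). The same-numbered classes share a library, which is why the block was kept. Leaving out either library left folds without a test, with 982 to 1058 genes higher and 651 to 733 lower. Between genotypes there were 141 higher and 122 lower without a CPM minimum, 248 lower after thinning, and 106 higher at 8000 UMIs and over. Of 241 values of 18 named genes 152 kept direction and call, 85 lost the call, including all 18 under the Wald test, and 4 reversed: Scart2 was at -0.52 at 8000 UMIs and over, Dgkeos at -0.052 at 2000 to under 4000 UMIs, and S100a6 at 1.89 at 4000 to under 8000 UMIs and 0.062 in cells with neither several Trbv segments nor a low ribosomal share.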
